A study of Mus musculus with 12 samples.

Results

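Among 50559 genes in the liver count tables, 64 have symbols that place them among the UDP-glucuronosyltransferases (Ugt1, Ugt2 and Ugt3), the cytosolic sulfotransferases (Sult1 to Sult6), the carboxylesterases (Ces1, Ces2 and Ces3) and the flavin-containing monooxygenases (Fmo1 to Fmo5). Symbols marked as pseudogenes were left out. The rule uses symbols and no measured value. By family they were 9 Ugt1, 10 Ugt2, 2 Ugt3, 21 Sult, 8 Ces1, 7 Ces2, 2 Ces3 and 5 Fmo genes. Of the 64, 41 had enough reads to be tested in at least 1 comparison, 39 were tested in all 4 comparisons and 23 in none.

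These enzymes carry much of the non-P450 drug and lipid chemistry of the hepatocyte. UDP-glucuronosyltransferases sit in the endoplasmic reticulum and attach glucuronic acid, or another sugar in the Ugt3 enzymes, to bilirubin, steroids, bile acids and drugs. Sulfotransferases are cytosolic and move a sulfate from the donor PAPS to phenols, catecholamines, steroids and bile acids. Carboxylesterases of the endoplasmic reticulum cleave esters, both drugs and stored acylglycerols, and flavin-containing monooxygenases oxidise nitrogen and sulfur atoms with electrons taken directly from NADPH.

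The livers came from C57BL/6N mice, with 3 libraries labelled as biological replicates in each of 4 groups. The NCD mice received normal chow and the HFD mice a high-fat feed with 60% of its energy as fat, both over 12 weeks. The HFD+C1 and HFD+C2 mice ate the same high-fat feed and were given C1 or C2, which the series title describes as CYP4A inhibitors, by intraperitoneal injection at 5 mg/kg/day for 12 weeks. The labels give neither sex nor age, describe no vehicle injection for the HFD mice, and give no structure for C1 or C2, so a compound and its injection cannot be told apart. Values below are CPM, read counts divided by a library's total in genes and brought to a common scale with edgeR's TMM factors over the 12 libraries. A gene was called when its adjusted p in edgeR's quasi-likelihood test, over all genes tested, was under 0.05.

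Reads counted in genes ran from 4281210 to 32124248 per library, and 3 counts, taken as the floor, correspond to 0.0997 to 0.633 CPM. NCD replicate 1 and HFD+C2 replicate 1 stood apart, with 58.2% and 47.1% of their reads not assigned to a single gene against 27.3% to 40.7% in the other libraries. All 8 hepatocyte markers were present in every library. Their summed level was 35080.0 to 85939 CPM in NCD, 96227 to 115772 in HFD, 111119.7 to 120719.8 in HFD+C1 and 88462 to 162342 in HFD+C2. The lowest sum was that of NCD replicate 1. Alb was the largest part of each sum, at 10662 to 45156 CPM in NCD and 54077 to 72925 in HFD. Serpina1c (5792 to 7193 CPM in NCD, 3930 to 4509 in HFD) and Tat (744 to 1050 and 437 to 634) went the other way. For Apoa1, Ttr, Cps1, Fgb and Ass1 these 2 groups overlapped. Of 4 skeletal muscle markers, the summed level reached 97.2 CPM in NCD replicate 3, while it was at most 0.233 CPM in the HFD libraries; of 4 enterocyte markers, Fabp2, which hepatocytes also express, held nearly all the signal, at 74.7 to 93.5 CPM in NCD and 269 to 401 CPM in HFD. The 5 cholangiocyte markers summed to 23.6 to 32.1 CPM in NCD and 33.0 to 39.8 CPM in HFD. Spp1 held most of that sum, at 13.3 to 22.9 CPM in NCD and 28.1 to 33.1 CPM in HFD. Sox9, at 4.01 to 9.35 CPM in NCD and 2.28 to 5.25 CPM in HFD, had groups that overlapped, as did Krt19, Krt7 and Epcam. The 4 adipocyte markers stayed under 1 CPM in all libraries. The part of these markers in the results below was not tested. In whole liver, fewer cells of a type and less RNA per cell cannot be told apart.

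The promoters of 5 members show how these genes sit on the chromosome, because 3 of them lie in a cluster, with other genes between them, and moved in different directions with the diet and the other pair are near copies that both fell. The sequences are the 250 bases before the RefSeq start site (GRCm38.p6), 5′ to 3′ on the gene's own strand. Capitals mark matches to AGGTCA (a nuclear receptor half-site), to GTTAAT (an HNF1 half-site) and to TTCNNNGAA (a STAT palindrome), each on both strands, and to TATAAA on the gene's strand.
Ces2a, chr8:104733753-104734002, plus strand: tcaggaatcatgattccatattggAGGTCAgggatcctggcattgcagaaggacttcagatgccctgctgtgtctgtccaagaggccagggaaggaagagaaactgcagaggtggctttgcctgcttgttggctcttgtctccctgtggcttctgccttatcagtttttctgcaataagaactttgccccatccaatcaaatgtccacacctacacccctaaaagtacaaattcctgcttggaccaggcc
Ces2g, chr8:104961468-104961717, plus strand: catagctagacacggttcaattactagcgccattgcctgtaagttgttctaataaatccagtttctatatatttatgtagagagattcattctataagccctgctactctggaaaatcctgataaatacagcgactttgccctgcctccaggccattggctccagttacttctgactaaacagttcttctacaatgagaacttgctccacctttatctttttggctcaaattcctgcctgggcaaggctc
Ces3b, chr8:105083505-105083754, plus strand: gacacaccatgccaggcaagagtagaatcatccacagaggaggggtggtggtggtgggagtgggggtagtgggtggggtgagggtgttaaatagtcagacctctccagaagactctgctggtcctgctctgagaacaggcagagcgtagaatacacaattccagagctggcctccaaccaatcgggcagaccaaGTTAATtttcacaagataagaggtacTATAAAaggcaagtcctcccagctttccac
Ugt2b5, chr5:87140341-87140590, minus strand: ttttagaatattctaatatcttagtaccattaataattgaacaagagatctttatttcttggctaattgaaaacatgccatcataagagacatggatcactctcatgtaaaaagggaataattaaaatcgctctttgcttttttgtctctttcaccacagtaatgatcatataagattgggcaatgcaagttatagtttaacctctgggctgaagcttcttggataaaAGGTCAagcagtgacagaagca
Ugt2b38, chr5:87424204-87424453, minus strand: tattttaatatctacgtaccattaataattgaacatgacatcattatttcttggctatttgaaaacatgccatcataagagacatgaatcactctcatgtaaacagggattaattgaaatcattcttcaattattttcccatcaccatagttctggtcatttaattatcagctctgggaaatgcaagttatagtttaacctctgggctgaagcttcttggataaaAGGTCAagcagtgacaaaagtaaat

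Ces2a, Ces2g and Ces3b lie within 1 carboxylesterase cluster on the plus strand, and none of the 4 letter patterns fell in the Ces2g sequence. The longest run of bases that Ces2a and Ces2g share there is 11, and the 250 bases align at 50.7% identity. Ugt2b5 and Ugt2b38 share a run of 62 bases that holds the AGGTCA match, and align at 81.5%. Another copy, Ugt2b37, is closer still to Ugt2b38, with a shared run of 82 bases that also holds AGGTCA and 84.8% identity. On 3 to 21 reads per library, its mean was 0.570 CPM in NCD and 0.566 CPM in HFD, with a log2 change of -0.02 (95% interval -1.38 to 1.35). Of 57 promoters of 52 matched members, 14 hold AGGTCA in the 300 bases from 250 before to 50 after the start, against 16.3% of the 32851 promoters in the table, and 14 hold GTTAAT, against 7.10%. TTGCNNAA, a C/EBP-like pattern, was in 16 of them against 10.8%, and TGACNNNGC, the core of the antioxidant response element, in 0 against 12.4%. GCGTG, the xenobiotic response core, was in 7 against 32.4%, TTCNNNGAA in 4 against 8.30% and TATAAA in 8 against 8.32%. Among the 8 matched promoters of members called for the diet, AGGTCA was in 4 (Ces2a, Ugt1a9, Ugt2b5 and Ugt2b38), GTTAAT in 2 (Ces3b and Ugt1a9), TTGCNNAA in 2 (Ces2a and Ugt2b5), TATAAA in 1 (Ces3b) and the other patterns in 0. Such matches describe letters in a window, and near copies within a family share them.

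Levels between genes were compared per kilobase of exon not shared with another gene (GENCODE M21, GRCm38). Over the 12 libraries the highest mean was 1124 CPM per kb for Ces1c, which encodes the secreted esterase of mouse plasma, followed by Ces3a at 920.3, Ugt2b5 at 349, Ces1f at 275, Ugt2b36 at 251 and Ces1d at 249.7 CPM per kb. Sult1a1, the main phenol sulfotransferase, was at 235 CPM per kb and Sult2a8, which sulfates bile acids in mouse liver, at 197. Fmo5 was the most abundant monooxygenase at 129 CPM per kb and Ugt3a2 the more abundant Ugt3 gene at 104. Ugt1a genes were not placed in this order: they share their last exons, and 40.1% of the Ugt1a9 transcript and 5.53% of Ugt1a6a is their own.

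The HFD livers were compared with the NCD livers to ask what the high-fat feed did to these enzymes, and 9 members were called. Of these, 8 fell: 4 carboxylesterases (Ces2a, Ces1d, Ces3b and Ces1e), 3 glucuronosyltransferases (Ugt2b5, Ugt1a9 and Ugt2b38) and the sulfotransferase Sult5a1. Ces2g was the 1 member called higher. The steepest fall among well-expressed members was that of Ces2a, to 20.2% of its NCD mean. Of 39 members tested, 27 were lower and 12 higher in HFD whatever their p, with a median log2 change of -0.25 against -0.02 over all 13864 genes tested; without NCD replicate 1 the members' median was -0.42. Of all those genes, 6.03% were called, 3.44% as lower and 2.59% as higher. Groups that did not overlap were found for 20 members, 15 of them lower in HFD, against 37.1% of all genes, and the unadjusted p was under 0.05 for 18 members, against 28.9% of all genes.

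**Figure D1:**
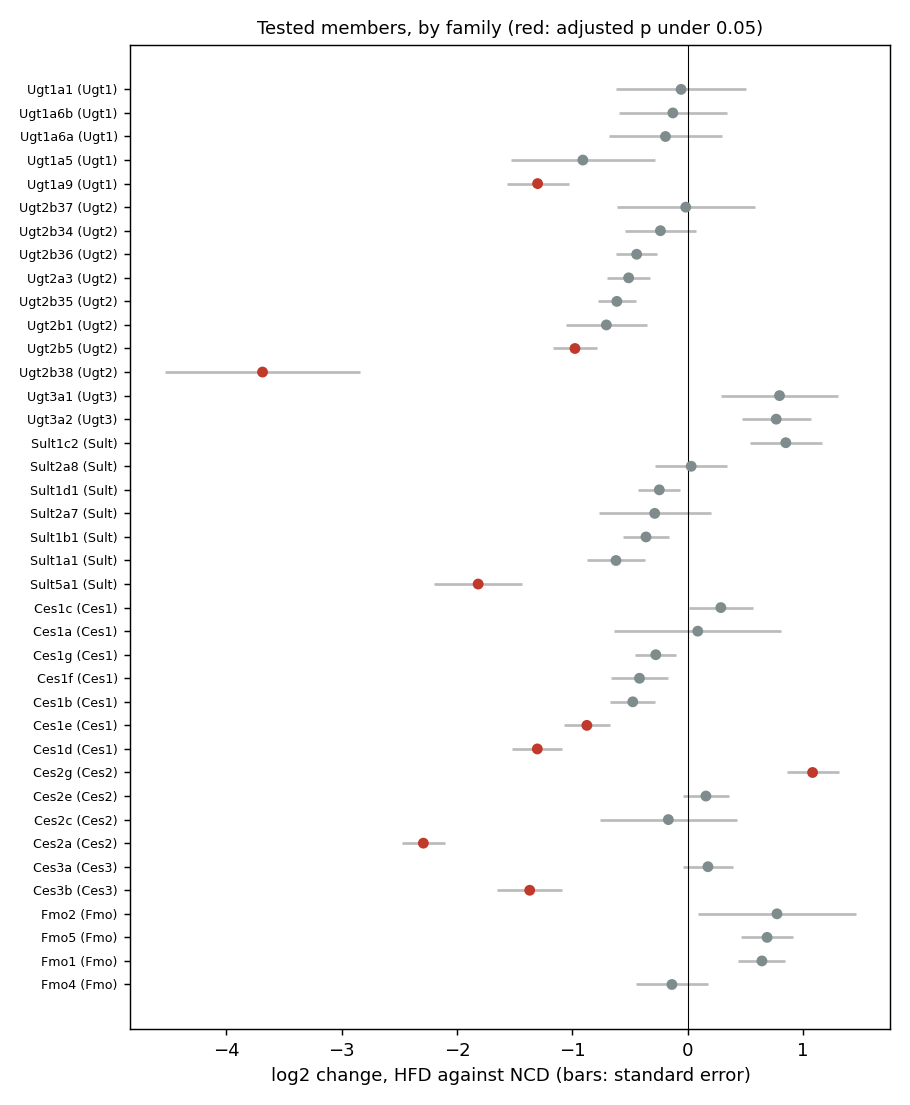
Each point is the log2 change of a tested member in HFD against NCD (x axis), with its standard error as a bar, grouped by family down the y axis; the 9 called members are red. Ugt2b38 and Ces2a lie farthest to the left, at -3.69 and -2.29, and Ces2g is the red point to the right of 0.

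Among the carboxylesterases, Ces2a encodes an endoplasmic reticulum enzyme that hydrolyses diacylglycerol and triacylglycerol. It measured 701, 544 and 673 CPM in the 3 NCD libraries and 132, 123 and 133 CPM in the 3 HFD libraries. The lowest NCD library was thus far above the highest HFD library, and the HFD libraries lay close together. The log2 change was -2.29 ± 0.19 (SE), with a 95% interval of -2.72 to -1.87 and an adjusted p of 0.00210 in edgeR. In the reference transcripts, 14.8% of the 75-base stretches of Ces2a also occur in the predicted gene Gm7208, so reads in that part could have been counted in either or in neither.

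Ces2g, a close relative about which less is known, lies downstream in the same cluster. Its levels were 11.5, 17.9 and 20.1 CPM in NCD and 34.7, 35.8 and 33.5 CPM in HFD. The HFD libraries were all above the NCD libraries, with a log2 change of 1.08 ± 0.23 (SE) and an adjusted p of 0.0386 in edgeR. Counted within each library, Ces2g amounted to 1.64% to 3.29% of the Ces2a reads in NCD and to 25.2% to 29.1% in HFD. Between the 2 genes lies Ces2e, at 422, 333 and 322 CPM in NCD and 409, 339 and 443 CPM in HFD. Those groups overlapped, and the log2 change of Ces2e was 0.16 (95% interval -0.29 to 0.61).

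In the Ces3 pair, Ces3b fell and Ces3a was not called. Ces3b measured 245, 338 and 351 CPM in NCD and 96.0, 170.2 and 92.0 CPM in HFD. Every HFD library was below every NCD library, although HFD replicate 2 stood well above the other two. Its log2 change was -1.37 ± 0.28 (SE), with an adjusted p of 0.0376 in edgeR. The neighbouring Ces3a, the more abundant gene of the pair, measured 1261, 1722 and 1949 CPM in NCD against 1775, 1967 and 1777 CPM in HFD, and its groups overlapped with a log2 change of 0.18 (95% interval -0.32 to 0.67). The transcripts share stretches, 15.4% of the 75-base windows of Ces3b and 18.3% of those of Ces3a. Ces3b reads were 18.0% to 19.6% of the Ces3a reads in NCD and 5.18% to 8.65% in HFD.

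In the Ces1 cluster, 5 of 7 tested genes had lower values in HFD, and 2 of them were called. Ces1d, known as triacylglycerol hydrolase and linked to lipid droplets and VLDL assembly, measured 646, 1000.5 and 969 CPM in NCD and 344, 361 and 345 CPM in HFD. NCD replicate 1 was the lowest of its group but still above all HFD libraries. The log2 change was -1.30 ± 0.22 (SE), with an adjusted p of 0.0237 in edgeR. Ces1e, or egasyn, which holds β-glucuronidase in the endoplasmic reticulum, measured 323, 271 and 310.1 CPM in NCD and 168, 131 and 189.8 CPM in HFD. Those groups were apart by a narrower margin, with a log2 change of -0.87 ± 0.20 (SE) and an adjusted p of 0.0442 in edgeR.

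The other Ces1 genes did not pass the test. Ces1c was at 997, 1575 and 2167 CPM in NCD and at 1940.4, 1899.9 and 1888 CPM in HFD, so its NCD libraries spanned a wide range around the HFD values. Ces1f, a second triacylglycerol hydrolase, measured 396, 756 and 641 CPM in NCD and 444, 445 and 441 CPM in HFD. NCD replicate 1 was the only NCD library below the HFD range, and without it Ces1f was called, with a log2 change of -0.65 and an adjusted p of 0.0116 in edgeR (adjusted p with each other library left out, 0.435 to 0.612). Ces1b had groups that did not overlap, at 99.3 to 141 CPM in NCD and 76.4 to 97.7 CPM in HFD, and a log2 change of -0.48 with an adjusted p of 0.154 in edgeR.

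**Figure D2:**
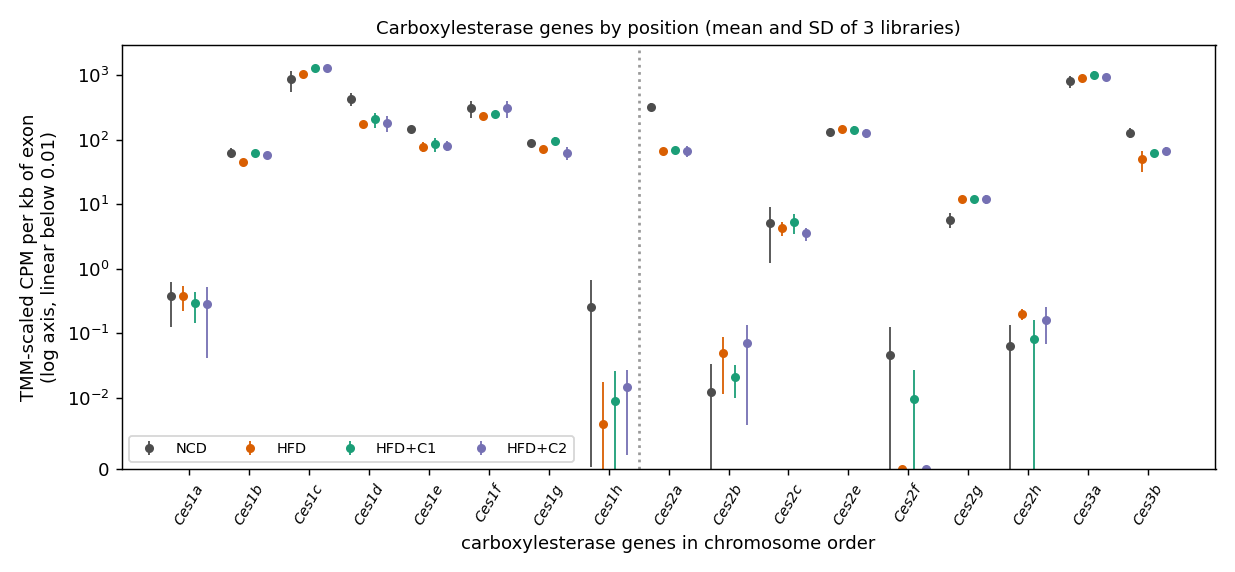
Points are group means and bars SDs of 3 libraries, in TMM-scaled CPM per kb of exon (y axis, logarithmic, linear below 0.01, with bars stopped at 0), for carboxylesterase genes in chromosome order (x axis); a dotted line separates the Ces1 cluster from Ces2 and Ces3. Ces2a drops from 326 CPM per kb in NCD to 66.0 in HFD, Ces2g goes from 5.77 to 12.1, and Ces1c and Ces3a stay the 2 highest in every group.

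Summed by family, the Ces2 genes went from 1025 ± 112 CPM (SD, n = 3) in NCD to 569.9 ± 55.5 in HFD. Ces2a, at 639 CPM, made up most of the NCD sum and Ces2e, at 397 CPM, most of the HFD sum. The Ces1 sum was 3685 ± 904 CPM in NCD and 3126 ± 50.3 in HFD, and the Ces3 sum 1955 ± 407 and 1959 ± 154 CPM, most of it Ces3a. Since 3 libraries against 3 cannot give an exact permutation p under 0.10, these sums are given without a test.

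All 8 tested Ugt2 genes had lower values in HFD, and 2 of them were called. Ugt2b5 is the most abundant member of its family per kilobase. It measured 1150.0, 923 and 872 CPM in NCD and 459.6, 506 and 517 CPM in HFD, with all HFD libraries below all NCD libraries. The log2 change was -0.98 ± 0.19 (SE), with an adjusted p of 0.0343 in edgeR. Ugt2b38, a scarce near copy, measured 13.5, 11.6 and 3.90 CPM in NCD and 0.266, 1.77 and 0.122 CPM in HFD. The values for HFD replicates 1 and 3 rest on 8 and 3 reads, the floor being 3, whereas HFD replicate 2 had 50 reads. The log2 change was -3.69 ± 0.85 (SE), with a 95% interval of -5.61 to -1.76 and an adjusted p of 0.0454 in edgeR.

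Because 27.9% of the 75-base windows of Ugt2b38 also occur in Ugt2b5, some Ugt2b38 reads could belong to its copy, which was not tested. As a share of the Ugt2b5 reads, Ugt2b38 was 1.18%, 1.26% and 0.448% in NCD and 0.0579%, 0.350% and 0.0236% in HFD, lower in every HFD library than in every NCD library. Among the other Ugt2 genes, Ugt2b35 came nearest to the threshold: 120.4, 103 and 111 CPM in NCD and 67.1, 78.3 and 71.6 CPM in HFD. Its groups did not overlap, and its log2 change was -0.61 ± 0.16 (SE) with an adjusted p of 0.0594 in edgeR. Ugt2b36, the next most abundant per kilobase, had a log2 change of -0.44 and an adjusted p of 0.151. The family sum was 2531 ± 190.3 CPM (SD, n = 3) in NCD and 1599 ± 151 in HFD.

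In the Ugt1 locus, each gene joins its own first exon to shared last exons. All 5 tested genes had lower values in HFD, and 1 was called. Ugt1a9, whose enzyme conjugates phenols, measured 8.25, 11.6 and 6.65 CPM in NCD and 3.76, 3.37 and 3.30 CPM in HFD. The groups were apart, with a log2 change of -1.30 ± 0.27 (SE) and an adjusted p of 0.0383 in edgeR. Ugt1a1, the bilirubin-conjugating enzyme and the one with the most reads of the 5 (CPM not corrected for length), measured 19.4, 144 and 85.2 CPM in NCD and 67.0, 99.4 and 68.8 CPM in HFD. Its NCD libraries surrounded the HFD values, and the sign of its change turned under several settings given further on. NCD replicate 1 was the lowest NCD library for Ugt1a1, Ugt1a5, Ugt1a6a and Ugt1a6b, but not for Ugt1a9.

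Both Ugt3 genes had higher values in HFD and neither was called. Ugt3a2 measured 83.5, 171 and 201 CPM in NCD and 242, 273 and 255 CPM in HFD. The groups did not overlap, the NCD spread being the wider, and the log2 change of 0.77 ± 0.30 (SE) had an adjusted p of 0.139 in edgeR. Ugt3a1 ranged from 9.18 to 46.4 CPM in NCD and from 34.2 to 66.1 CPM in HFD, which overlapped.

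Of 7 sulfotransferases tested, only Sult5a1, an enzyme with little known function, was called. It measured 31.0, 9.49 and 18.5 CPM in NCD and 4.72, 6.63 and 5.50 CPM in HFD. NCD replicate 2 was close to the HFD range, and the log2 change was -1.82 ± 0.38 (SE) with an adjusted p of 0.0387 in edgeR. Sult1a1 measured 549.7, 279 and 389.5 CPM in NCD and 264, 244 and 276 CPM in HFD, apart by a small gap, with a log2 change of -0.62 and an adjusted p of 0.150. Sult2a8 ranged from 239.6 to 448 CPM in NCD and from 276 to 517 CPM in HFD, with a log2 change of 0.03. The estrogen sulfotransferase Sult1e1 was not tested here, at 0.205 to 0.255 CPM in NCD and 0.204 to 0.399 CPM in HFD.

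None of the 4 tested monooxygenases was called in the reported fit. Fmo5 measured 355, 591 and 555 CPM in NCD and 799.5, 776 and 822 CPM in HFD, and Fmo1 measured 90.7, 136 and 137 CPM in NCD and 194, 179 and 189 CPM in HFD. For both genes every HFD library was above every NCD library, with NCD replicate 1 the lowest. The log2 change was 0.69 ± 0.23 (SE) for Fmo5 and 0.64 ± 0.20 (SE) for Fmo1, with adjusted p of 0.0959 and 0.0867 in edgeR. Other settings did call them: DESeq2 gave adjusted p of 0.0214 and 0.0200, edgeR without the filter on low counts 0.0339 and 0.0216. The fit of all 12 libraries called Fmo1 (adjusted p 0.0342), and leaving out NCD replicate 1 called Fmo5 (0.0487; 0.0699 to 0.285 without another library).

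**Figure D3:**
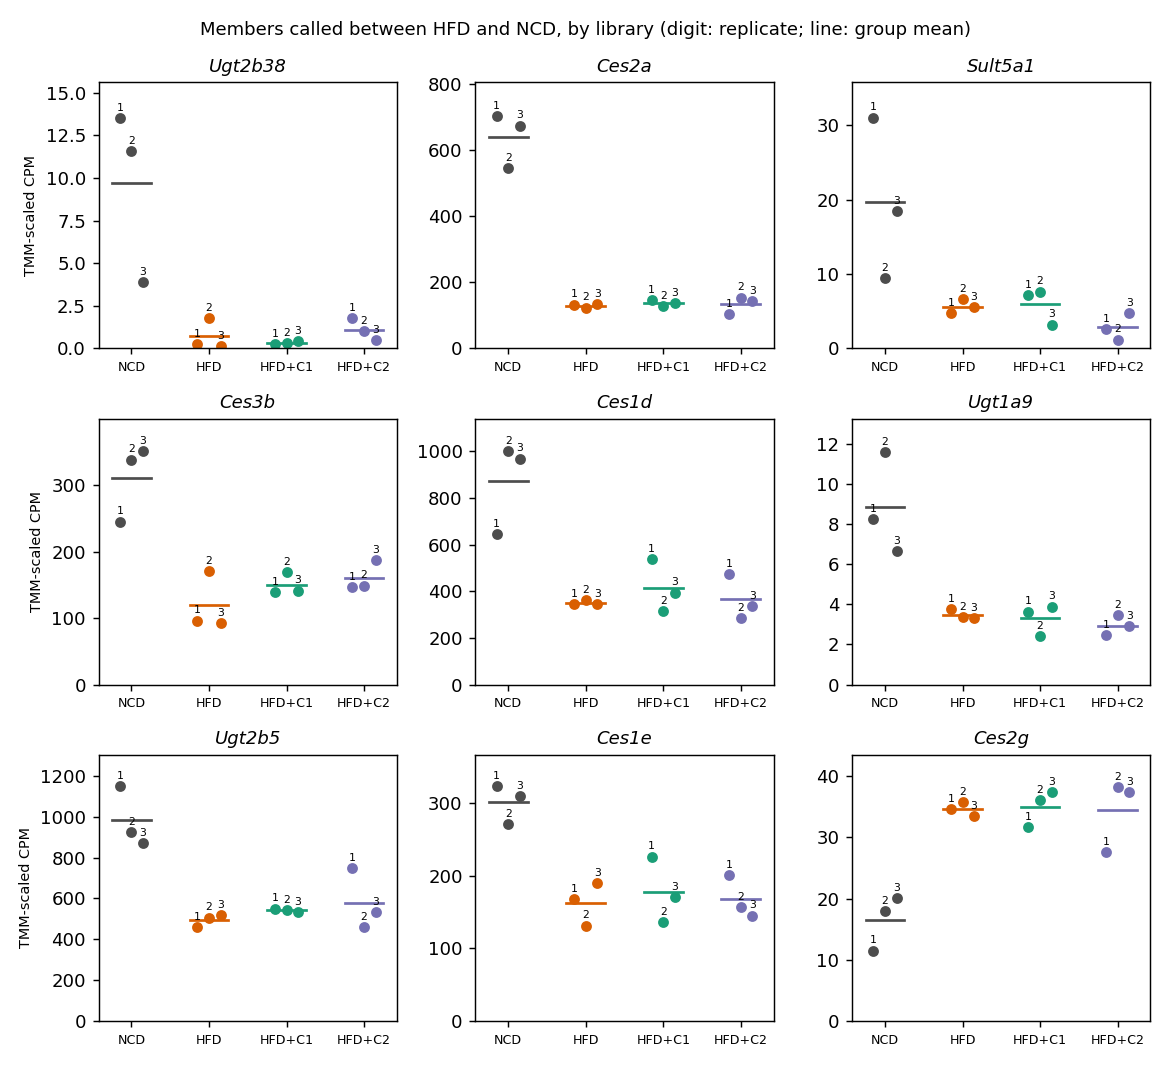
Each panel is a member called between HFD and NCD, with TMM-scaled CPM per library on the y axis (linear, from 0), the 4 groups on the x axis, digits for the replicate and a line for the group mean. In all 9 panels the HFD, HFD+C1 and HFD+C2 points lie on the same side of the NCD points.

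How firmly these calls stand differs by gene. Ces2a was called with any 1 of the 6 libraries left out, with adjusted p from 1.95e-06 to 0.0447 in edgeR. The other 8 lost their call in some of these fits. Without HFD replicate 1 or HFD replicate 3, Ces2a was the single member called, and without HFD replicate 2 it was Ces2a, Ces3b and Ugt2b38. In those fits 0.165%, 0.179% and 0.940% of all genes were called. Without NCD replicate 2, Ugt2b38 was lost, and without NCD replicate 3, Ces1e, Ces3b and Sult5a1 were lost. Without NCD replicate 1, the library that stood apart, all 9 were called together with 6 more, and 13.7% of all genes were. The log2 change of each of the 9 kept its sign in every one of these fits, from -2.37 to -2.23 for Ces2a and from 0.85 to 1.27 for Ces2g, and most widely from -5.51 (without HFD replicate 2) to -3.20 for Ugt2b38.

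**Figure D4:**
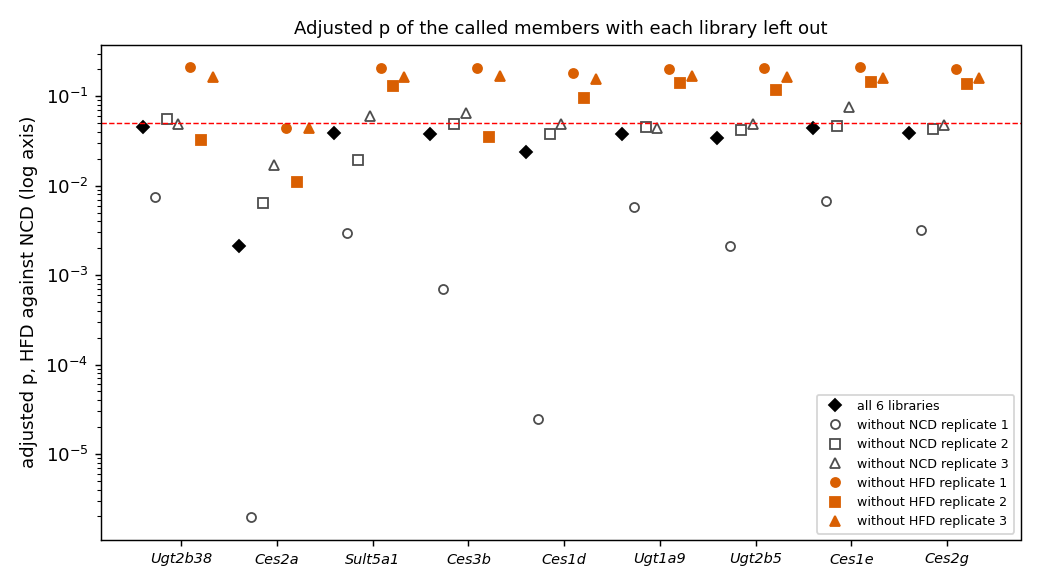
Adjusted p of HFD against NCD (y axis, logarithmic) for the 9 called members (x axis) with all 6 libraries (diamonds) and with each library left out (open symbols for NCD, filled for HFD); the dashed line is 0.05. Ces2a is below the line in all fits, and the other 8 are above it without HFD replicate 1 or 3.

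Enzymes of this kind depend on cofactor supply, exporters and ligand-activated receptors, and 33 such genes were tested beside them. For the diet, 3 were called higher and 1 lower, where 2.59% and 3.44% of all genes were. Por, the reductase that feeds electrons to P450 enzymes, averaged 167 ± 34.1 CPM in NCD and 73.9 ± 7.54 in HFD (SD, n = 3), and its log2 change was -1.16 (edgeR adjusted p 0.0254). Ugp2, which makes UDP-glucose and so the precursor of the glucuronic acid donor, rose from 159 ± 8.67 to 264 ± 23.2 CPM (adjusted p 0.0440). The nuclear receptor Ppara rose from 44.9 ± 15.1 to 97.1 ± 8.58 CPM (adjusted p 0.0419), and the stress factor Nfe2l2, or NRF2, from 22.3 ± 5.96 to 48.0 ± 2.20 CPM (adjusted p 0.0354). Ugdh, which oxidises UDP-glucose to the donor, had a log2 change of -0.51 and an adjusted p of 0.0851, and the xenobiotic receptor Nr1i2 (PXR) one of 0.20 and 0.776. The 4 calls held without NCD replicate 1 or 2. Without NCD replicate 3, Ppara and Ugp2 were lost, and without any 1 of the HFD libraries all 4 were, with adjusted p of 0.0901 to 0.206.

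HFD+C1 and HFD+C2 livers were each compared with the same 3 HFD livers to ask whether a compound changed these genes under the high-fat feed, so their results are not independent of each other. With the filter on low counts, no member was called in edgeR for either compound, and without it 1 was, Sult5a1 as lower with C2, in a fit that called 0.531% of all genes. For C1, 0.0524% of the 13358 genes tested were called; 6 of 39 members had an unadjusted p under 0.05 (7.75% of all genes did) and 9 had groups that did not overlap (12.3%). For C2, 0.0222% of 13503 genes were called; 3 of 41 members had an unadjusted p under 0.05 (6.89% of all genes) and 4 had groups apart (13.6%). DESeq2 and limma also called 0 members in both comparisons. Values were higher than in HFD for 29 of 39 members with C1, at a median log2 change of 0.18, and for 28 of 41 with C2, at 0.16, while the medians over all genes were 0.01 and 0.02. The C2 median was 0.10 without HFD replicate 1 and 0.24 without HFD replicate 2. The 6 Kupffer cell markers, summed, were at 211 to 279.9 CPM with C1 and 166 to 404 with C2 against 131 to 172 in HFD; their part in these values was not tested. HFD replicate 2 carried the highest HFD value for 23 of 39 members, against 39.0% of all genes. Without it, the C1 comparison called Ces3b and Ugt3a1 higher, in a fit that called 0.767% of all genes. In the other fits with a library left out, 0 members were called for C1.

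With either compound, the means of all 9 members called for the diet were closer to those in HFD than to those in NCD. Ces2a measured 145, 128 and 138 CPM with C1 and 104, 153 and 142 CPM with C2. The C1 values overlap the HFD values, the C2 values surround them, and all lie far below NCD. The log2 change against HFD was 0.08 (95% interval -0.16 to 0.32) for C1 and 0.03 (-0.39 to 0.45) for C2. Ces2g was at 31.7, 36.1 and 37.4 CPM with C1 and at 27.6, 38.2 and 37.5 CPM with C2, again around the HFD level and above every NCD library. As a share of the NCD mean, Ces1d was 40.1% in HFD, 47.6% with C1 and 41.9% with C2, Ces1e 54.0%, 59.0% and 55.6%, and Ugt2b5 50.3%, 55.1% and 59.0%. Ces3b stood at 38.4%, 48.1% and 51.7%, and Ugt1a9 at 39.3%, 37.5% and 33.3%. Sult5a1 was at 28.5% in HFD, 30.4% with C1 and 14.5% with C2, and the scarce Ugt2b38 at 7.44%, 3.35% and 11.1%; neither was called against HFD with the filter on low counts, and without it Sult5a1 was called lower with C2. For all 9 members, no library of the 2 compound groups reached the NCD range.

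The 3 smallest p-values with C1 belonged to genes of the Ces1 cluster, though none passed the adjusted threshold. Ces1b measured 90.1, 76.4 and 97.7 CPM in HFD and 129, 109 and 126 CPM with C1. The C1 libraries were all above the HFD libraries, with a log2 change of 0.46 ± 0.13 (SE) and an adjusted p of 0.325 in edgeR. Ces1g, whose enzyme limits lipid secretion from hepatocytes, was at 175, 154 and 184 CPM in HFD and at 261, 197 and 237 CPM with C1, also without overlap (log2 change 0.43, adjusted p 0.399). Ces1c was at 1888 to 1940.4 CPM in HFD and at 2209.7 to 2508 CPM with C1 (log2 change 0.31, adjusted p 0.501). Ugt3a2 was at 304 to 311 CPM with C1 against 242 to 273 CPM in HFD, with a log2 change of 0.26 and an adjusted p of 0.587. Ugt2b37 went the other way, at 0.183 to 0.426 CPM against 0.465 to 0.744 CPM, on 4 to 21 reads per library.

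With C2, Sult1d1, which sulfates catecholamines, measured 104, 86.9 and 89.2 CPM against 52.0, 69.9 and 67.4 CPM in HFD. The groups did not overlap, and the log2 change of 0.56 ± 0.17 (SE) had an adjusted p of 0.695 in edgeR. Ces1b, at 121, 114 and 109 CPM, was above all HFD libraries as it was with C1, with a log2 change of 0.37 and an adjusted p of 0.695. Sult5a1 was at 2.60, 1.17 and 4.78 CPM, which reached from just above the lowest HFD value downwards (log2 change -0.99, adjusted p 0.695). Sult1e1 had its highest value in HFD+C2 replicate 2, at 1.72 CPM (44 reads), while the other 2 libraries of the group were at 0.501 and 0 CPM. Its log2 change of 1.32 had a 95% interval of -0.82 to 3.45, and without that library it had too few reads to be tested. HFD+C2 replicate 1, which stood apart in its unassigned reads, carried the highest C2 value for 16 of 39 members and the lowest for 13, against 39.9% and 42.8% of all genes. Without it, 0 members were called for C2 against HFD.

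C1 and C2 were given at the same dose and for the same time, which allows their 1 pairwise comparison, but how their structures differ is not in the labels. Against C1, C2 gave 0 calls in edgeR among 40 members and 0% of all 13229 genes that passed the filter on low counts, with 0 members called by DESeq2 and limma. Without the filter edgeR called 1 member, Sult5a1 as lower, and 0.551% of all genes. With the filter, the unadjusted p was under 0.05 for 3 members and 4.60% of all genes. Ugt2b38 measured 0.227, 0.320 and 0.426 CPM with C1 and 1.75, 1.02 and 0.461 CPM with C2. The groups were just apart on 6 to 35 reads, and the log2 change was 1.73 with a 95% interval of 0.48 to 2.98 and an adjusted p of 0.841. Without HFD+C2 replicate 1 that change was 1.21. Ugt2b38 had 6, 7 and 8 reads in the C1 libraries and 35, 26 and 11 in the C2 libraries. It passed the filter on low counts only through its C2 reads, so this fit cannot decide whether Ugt2b38 differs between the compounds. Ces1g was at 261, 197 and 237 CPM with C1 and at 139, 126 and 189 CPM with C2. Every C2 library was below every C1 library, with a log2 change of -0.62 (95% interval -1.07 to -0.16) and an adjusted p of 0.841. For 33 of the 40 members the 95% interval of the difference lay within 1 log2 unit of 0, and for 8 within 0.5, so larger differences are not excluded for 7 of them. Ces2a differed by -0.04 (95% interval -0.45 to 0.37) and Ces2g by -0.02 (-0.40 to 0.36).

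**Figure D5:**
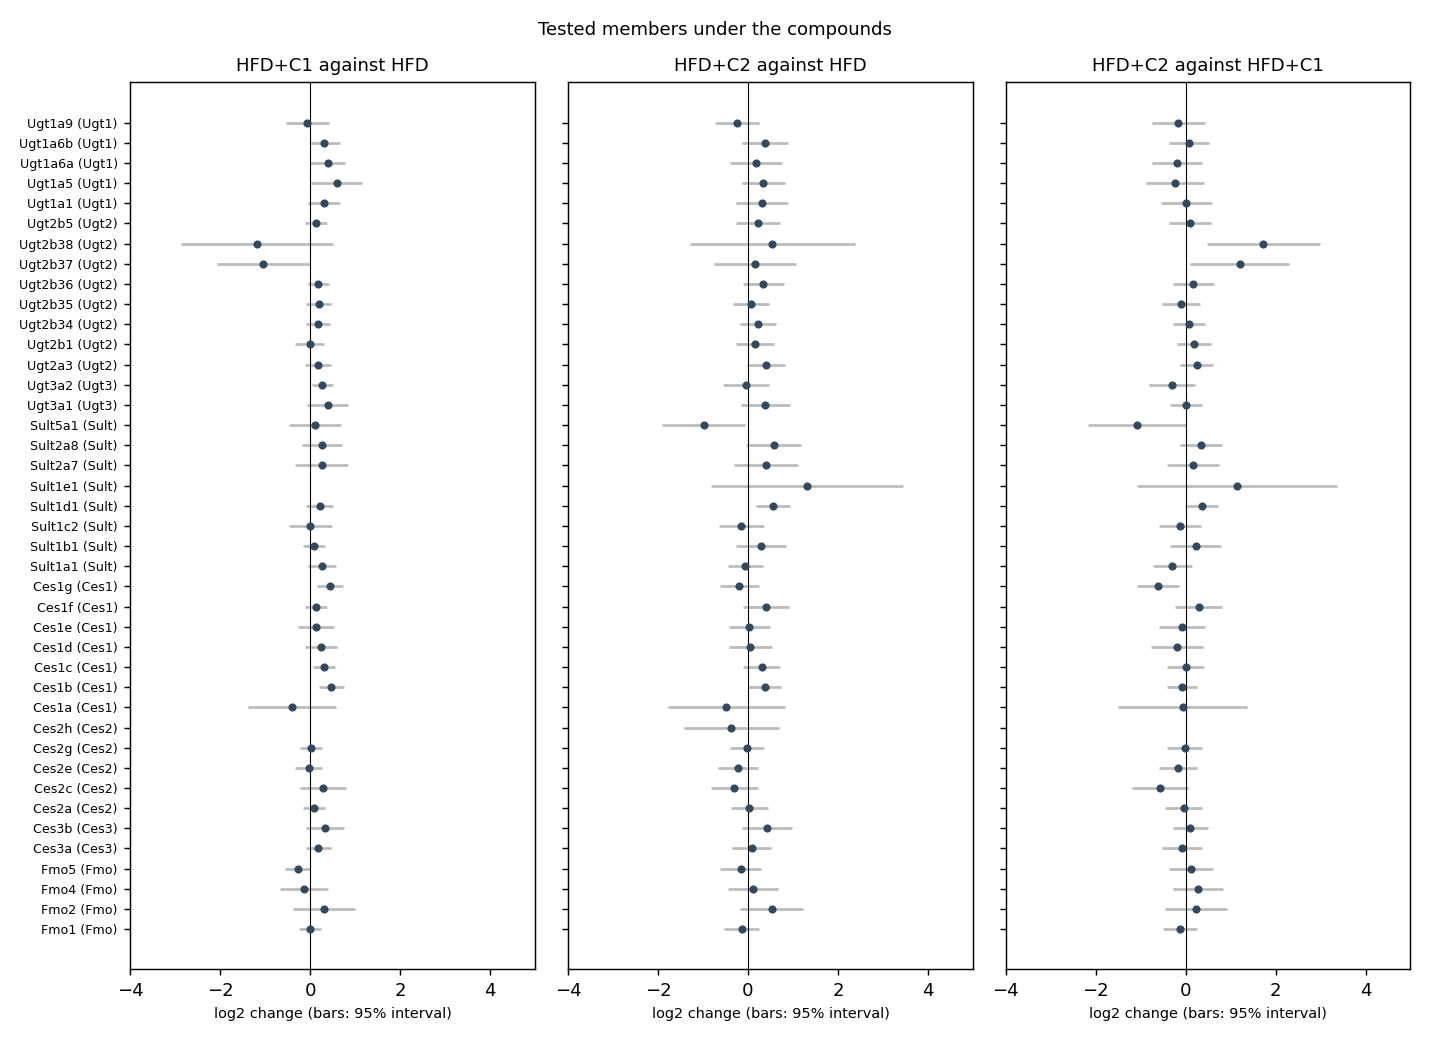
Log2 change with its 95% interval (x axis) for each tested member (y axis, by family) in HFD+C1 against HFD, HFD+C2 against HFD and HFD+C2 against HFD+C1. Most points lie within 1 of 0; the widest bars belong to scarce members such as Ugt2b38 and Sult1e1.

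Of the 33 cofactor, transporter and receptor genes, 0 were called for either compound or between them in edgeR. The smallest p belonged to Foxa2, a liver transcription factor, with both compounds. It measured 40.6 ± 3.65 CPM (SD, n = 3) in HFD, 26.4 ± 5.55 with C1 and 17.0 ± 4.35 with C2, with log2 changes of -0.62 (adjusted p 0.237) and -1.26 (adjusted p 0.262). The bile acid receptor Nr1h4 (FXR) was at 72.1 ± 4.63 CPM in HFD, 92.5 ± 10.1 with C1 and 114 ± 27.1 with C2, with adjusted p of 0.439 and 0.695. Por, lowered by the feed, was at 86.5 ± 9.60 CPM with C1 and 105 ± 39.5 with C2 (adjusted p 0.739 and 0.696).

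The 23 members tested in no comparison add little to the total. They include 6 that had 0 reads in every library (Sult2a3, Sult4a1, Sult6b2, Ugt1a8, Ugt1a10 and Ugt2a2), which allows up to the 3-count floor in each. Summed over all 23, the level was 9.35 CPM in NCD replicate 1, 1.81 in NCD replicate 3 and at most 0.901 CPM in the other 10 libraries. NCD replicate 1 was thus the highest by far, on 110 reads. Sult2a1 and Sult3a1, which mouse livers express mainly in females, stayed at or below 1.02 CPM in every library.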

How the data were processed

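RNA from liver was extracted with Tri Reagent and made into libraries with Advanta kits on a Fluidigm JUNO, per the labels' protocols. The submitters' processing notes name Trimmomatic 0.39, STAR 2.7, DESeq2 and mm10; the counting program, strand and annotation are not given in the sources used here. The authors deposited tables called normalized that hold whole-number read counts, as tested on the values: they differ in total between libraries, and the HFD columns are the same in each table (0 cells differ). The 4 rows that name no gene (27.3% to 58.2% of reads) were left out. Without strand, reads of a gene and its antisense partner cannot be told apart.

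For each comparison, edgeR 4.0.16 (R 4.3.3) fitted a quasi-likelihood model to its 6 libraries, with TMM scaling and no covariates, over genes averaging 10 or more counts there; p-values were adjusted by Benjamini-Hochberg over all of them. SEs are the log2 change divided by the root of the F statistic. The procedure was first tested on simulated counts. The test was repeated with other filters, scalings, dispersions, DESeq2 1.42.0, limma 3.58.1, all 12 libraries, a replicate block and each library left out. Leaving libraries out for the cofactor, transporter and receptor genes was added after the data were seen.

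Named are members that were called, up to 10 per comparison with an unadjusted p under 0.05 and groups apart, the 2 most abundant of each family, Sult1e1, and a few neighbours and other members chosen after their values were seen. A further member that the rule also names is not reported here. Members, gene lists and this rule were chosen with earlier results of these data known. Coordinates and exon lengths came from GENCODE M21 (GRCm38), matched for all 64 symbols, and promoters from RefSeq (GRCm38.p6). Floors and intervals of reads cover counting error only.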

Additional observations from a re-analysis of the deposited data

Results flagged for a closer look

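In HFD+C2 replicate 1, 9.04% of all reads overlapped more than 1 gene and so entered no gene's count. This is a signal outside the counts compared above, and it lies over the 3.91% to 4.96% of the HFD libraries, which served as its controls. In NCD replicate 1 the share was 7.88%. Its part in the levels of members with overlapping exons, such as the Ugt1a genes, was not tested.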

How the results depend on the processing

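For the diet, 9 members were called; the count was 15 without a filter on low counts (7 of the 9 among them), 14 with DESeq2 and 5 with a replicate block, while the other settings gave 7 to 12. The share of all genes called moved too: 6.03% as reported, 12.7% without a filter, 16.6% with DESeq2, 3.48% with the block and 17.4% with all 12 libraries in 1 fit, which called 12 members. With 1 library left out the count of members called ran from 1 to 15. Ces2a, Ces1d, Ces2g, Ces3b and Ugt2b38 were called in all 10 settings that keep every library. Without a filter, Ces1e and Ugt2b5 lost their call, and with limma Ces1e and Sult5a1 did. With the block, Ces1e, Sult5a1, Ugt1a9 and Ugt2b5 lost it. The count of members called ran from 0 to 2 for C1 with 1 library left out, and without a filter it was 1, Sult5a1 as lower, for C2 against HFD (0.531% of all genes called) and 1, again Sult5a1 as lower, for C2 against C1 (0.551%). The cause of these shifts was not tested, beyond the number of genes tested and of libraries.

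No called member reversed. Only the named members were followed across settings, and of those not called for the diet the log2 change turned for Ugt1a1 (no filter 0.071, limma 0.32, block 0.29, and -0.53 to 0.61 with 1 library left out, positive without NCD replicate 2, HFD replicate 1 or HFD replicate 3), for Ugt1a6b (no filter 0.0067, limma 0.058, block 0.050, and -0.52 to 0.47 with 1 library left out, positive without NCD replicate 2), for Sult2a8 (mean of at least 50 counts -0.022, upper quartile -0.039, library size alone -0.16, and -0.31 to 0.23 with 1 library left out, negative without NCD replicate 1 or HFD replicate 2) and, by library size alone, for Ces2e (-0.076) and Ces3a (-0.031). Library size alone moved the median of all genes from -0.02 to -0.24, and the members' median from -0.25 to -0.46; that median was -0.15 with limma and with the block.

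The labels share replicate numbers between groups. For the diet the correlation of same-numbered libraries' deviations was -0.04, 0.29 and -0.14 over 10133 genes, so the numbers were not taken as pairs; the block left 5 calls (Ces1d, Ces2a, Ces2g, Ces3b and Ugt2b38).

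NCD replicate 2, with 4281210 reads in genes, limits what can be seen of scarce members, since 3 counts there stand for 0.633 CPM.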

Other observations

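Gene order and response can be set side by side along the second carboxylesterase cluster on chromosome 8 (GRCm38), where all genes lie on the plus strand. Of those tested for the diet, Ces2a (104734003 to 104741634) fell, Ces2c and Ces2e were not called, Ces2g (104961718 to 104969537) rose, Ces3a was not called and Ces3b (105083753 to 105093929) fell. Ces2c was variable in NCD, at 1.87, 16.9 and 11.2 CPM, and measured 7.71, 10.8 and 6.92 CPM in HFD.

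NCD replicate 1 was the lowest NCD library for 21 of 39 members tested in every comparison, against 42.3% of all genes. The number of reads of Ugt1a9 was 42.5% of that of Ugt1a1 in this library, 8.06% and 7.81% in the other NCD libraries, and 2.21% to 5.61% in the 9 libraries of mice on the high-fat feed.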
